A study of Homo sapiens with 18 samples.

Results

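The genes described here are 6 metallothionein genes (MT2A, MT1E, MT1F, MT1G, MT1M and MT1X), the zinc sensor MTF1 and the zinc exporter SLC30A1, 8 of the 62710 genes in the count table. They were taken by gene symbol. The set was chosen by the difference between genotypes in the collagen response of MT2A in these same libraries, so the values of MT2A, and the differences between genotypes in the collagen response of all 8 genes, are given as a description with no test. RNA was sequenced in 6 groups of 3 libraries from spheroids of the human cell line MDA-MB-231, which was established from a triple-negative breast cancer. Control spheroids carried the genotype label Wildtype and targeted spheroids the label MMP14-KO. MMP14, also called MT1-MMP, is a collagen-cleaving protease of the cell surface and no metallothionein. Each genotype was sampled after 5 days of formation in hanging droplets, with no collagen, or 24 h or 48 h after embedding in a collagen hydrogel. All groups held spheroids of 2000 cells and 100000 cells per sample. Spheroids in collagen were released with Type 7 collagenase at 2 mg/ml and 37 °C, and droplet spheroids were washed off without digestion, so that collagen, digestion and days in culture cannot be told apart in the comparisons of collagen with droplets. The labels do not say whether the targeted line is a single clone or a pool, or whether replicates are separate cultures. The p-values therefore measure the spread between these libraries, which may be technical.

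Metallothioneins are small, cysteine-rich proteins that bind zinc, copper and cadmium through the sulphur of their cysteines and buffer the free level of these metals. MTF1 is a zinc-finger transcription factor that is activated by zinc and binds metal response elements in metallothionein promoters. SLC30A1, also known as ZnT1, moves zinc out of the cell across the plasma membrane and is itself a known MTF1 target, and metallothionein genes are also known to respond to glucocorticoids and to oxidative stress.

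The 6 metallothionein genes lie within 76.0 kb of chromosome 16 (GRCh38, GENCODE 29). In order of position they are MT2A at chr16:56608199-56609497, MT1E at chr16:56625475-56627112, MT1M at chr16:56632233-56633986, MT1F at chr16:56657694-56660698, MT1G at chr16:56666731-56668065 and MT1X at chr16:56682424-56684196. MT1G is on the minus strand and the others are on the plus strand. MTF1 lies at chr1:37809567-37859620 and SLC30A1 at chr1:211571568-211578742, both on the minus strand. The coding sequences of the 3 metallothionein members with more than a few reads are shown because their likeness decides whether reads can be told apart, and because the cysteine codons, in capitals, are the metal-binding positions. Each holds 186 bases with the stop codon, or 61 codons, of which 20 are cysteine codons.
MT2A: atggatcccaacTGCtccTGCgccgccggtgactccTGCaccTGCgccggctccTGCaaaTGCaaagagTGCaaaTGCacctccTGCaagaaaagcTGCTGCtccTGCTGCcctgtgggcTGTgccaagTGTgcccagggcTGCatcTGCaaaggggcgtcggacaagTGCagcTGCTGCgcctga
MT1E: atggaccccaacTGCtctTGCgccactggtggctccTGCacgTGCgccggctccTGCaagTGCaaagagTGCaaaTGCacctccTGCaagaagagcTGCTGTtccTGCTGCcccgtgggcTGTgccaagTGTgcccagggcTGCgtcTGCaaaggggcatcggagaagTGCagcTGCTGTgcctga
MT1X: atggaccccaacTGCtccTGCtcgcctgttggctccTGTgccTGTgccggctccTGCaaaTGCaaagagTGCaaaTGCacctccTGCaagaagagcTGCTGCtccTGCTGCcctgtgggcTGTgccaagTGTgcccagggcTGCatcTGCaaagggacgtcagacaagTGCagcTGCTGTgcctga
MT1E and MT1X each differ from MT2A at 14 bases, an identity of 92.5%. Of all 151-base words in their GENCODE transcripts, the length of a read, 0 in MT2A and 0 in MT1E were shared with another gene. In MT1X 16 of 300 were shared (5.3%), all with AC026461.1, an overlapping transcript on the same strand for which no reads were found. Whether the annotation used for counting held AC026461.1 was not checked. RSEM splits reads that fit several genes of its annotation, so the MT1X counts hold that uncertainty if AC026461.1 was among them.

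The sequences upstream of the start sites are shown for the metal response element core, written here as TGCACNC or TGCGCNC and searched on both strands. RefSeq sequence (GRCh38.p14) was matched for 4 of the 8 members, MT2A, MT1X, MTF1 and SLC30A1. In the 250 bases before the RefSeq start site, MT2A held 7 matches, MT1X 4, SLC30A1 1 and MTF1 0. Of 35116 promoters of the same length, 24.829% held at least 1 match, 0.37% at least 4 and 0.031% at least 7. These promoters were not chosen for like GC content, which was 73.2% in MT2A, 70.0% in MT1X and MTF1 and 66.4% in SLC30A1. A match is a run of letters and not a measured binding site. The 250 bases before the RefSeq start of MT2A lie inside the first exon that GENCODE 29 gives this gene, so only the surroundings of 3 of its matches are printed, with the match in capitals (a match on the other strand appears as its reverse complement). These matches begin 168, 88 and 54 bases before the RefSeq start, the distances given in the labels. The printed stretches, which also hold bases on either side of the match, span chr16:56608406-56608432, chr16:56608486-56608512 and chr16:56608520-56608546 on the plus strand.
MT2A, 168 bases before the start: cccgcggcccGTGTGCAgagccgggtg
MT2A, 88 bases before the start: agcgcggggcGTGTGCAggcagcgccc
MT2A, 54 bases before the start: gcggggctttTGCACTCgtcccggctc
For MT1X the 204 bases outside GENCODE exons are shown (chr16:56682220-56682423, plus strand), and for SLC30A1 the whole 250 bases (chr1:211579162-211579411, minus strand).
MT1X: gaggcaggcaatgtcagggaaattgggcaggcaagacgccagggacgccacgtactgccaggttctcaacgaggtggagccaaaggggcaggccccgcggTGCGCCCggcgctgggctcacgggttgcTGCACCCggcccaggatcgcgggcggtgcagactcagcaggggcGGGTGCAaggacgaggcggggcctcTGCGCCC
SLC30A1: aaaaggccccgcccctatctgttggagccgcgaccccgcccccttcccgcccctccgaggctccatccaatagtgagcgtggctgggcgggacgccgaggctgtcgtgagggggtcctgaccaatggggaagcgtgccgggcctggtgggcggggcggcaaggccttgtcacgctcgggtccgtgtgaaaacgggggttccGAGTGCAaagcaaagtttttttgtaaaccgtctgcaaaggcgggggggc
All 4 matches of MT1X and the only match of SLC30A1 lie in the stretches shown. The RefSeq start of SLC30A1 lies upstream of its GENCODE 29 start at chr1:211578742. The bases just before that GENCODE start were therefore not searched.

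Library totals ranged from 19819401 to 33352163 counts. Levels are CPM, read counts divided by the library total after TMM scaling, and a gene was called where edgeR's quasi-likelihood test, adjusted by Benjamini-Hochberg over the 17030 genes tested, gave a p under 0.05. MMP14, the targeted gene, had 1284 to 2250 CPM in the 9 control libraries and 137.9 to 165.6 CPM in the 9 targeted ones. Genes high in MDA-MB-231 (6 genes, VIM and CD44 among them) summed to 4531 to 7616 CPM, while lists of 5 or 6 genes for luminal epithelium, fibroblasts, leukocytes and endothelium each summed to at most 44.24 CPM in any library. In these bulk samples fewer cells with a transcript and less of it per cell cannot be told apart.

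The MDA-MB-231 list and the low levels of the other lists all moved with the comparisons. Over both genotypes the MDA-MB-231 list summed to 4531 to 5364 CPM in droplet libraries and 6790 to 7616 CPM in collagen libraries. Given in the order droplets, 24 h and 48 h, the leukocyte list summed to 30.4 to 34.4, 11.6 to 18.4 and 10.2 to 12.2 CPM in control spheroids and to 36.7 to 44.2, 17.3 to 19.5 and 15.2 to 19.3 CPM in targeted ones. The endothelial list, nearly all of it PECAM1, summed to 28.7 to 31.9, 8.53 to 19.99 and 9.15 to 15.3 CPM in control spheroids and to 33.3 to 34.5, 21.1 to 24.6 and 19.8 to 29.9 CPM in targeted ones. The fibroblast list, mostly PDGFRB, summed to 28.2 to 33.4, 15.7 to 18.9 and 13.7 to 15.4 CPM in control spheroids and to 19.0 to 26.9, 23.4 to 24.8 and 20.02 to 21.17 CPM in targeted ones. So the leukocyte sum was lower in collagen in both genotypes with no overlap, as was the endothelial sum, and the fibroblast sum lay lower in collagen without overlap in control spheroids. PDGFRB, a growth factor receptor, changed differently in the 2 genotypes (targeted minus control 1.06 on the log2 scale, SE 0.142, edgeR's adjusted p = 0.000438 at 24 h). The leukocyte gene CD3E was at 0 in all libraries, and the endothelial CDH5 was at most 0.14 CPM. The luminal list summed to 20.6 to 20.9 CPM in control droplets and 13.7 to 15.95 CPM in control collagen libraries, and to 17.45 to 18.38 and 12.6 to 14.9 CPM in targeted ones. The part of these lists in the changes of the metallothionein genes was not tested.

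Only 5 of the 8 genes passed the filter on low counts. MT2A had 3560 to 10781 reads per library, SLC30A1 1797 to 3271, MTF1 686 to 984, MT1E 175 to 1183 and MT1X 326 to 894. MT1F had 0 to 6 reads per library, with reads in 15 of 18 libraries. MT1G had 1 read in all, in control spheroids at 24 h. MT1M had 0 reads in all 18 libraries, where a count of 0 allows up to 0.08995 to 0.1514 CPM depending on the library (3 counts of the total, counting error only). These 3 genes were not tested. The MT1F libraries of targeted droplets, with 0, 2 and 0 reads (0 to 0.070 CPM), lay below those of control droplets, with 2, 3 and 4 reads (0.0935 to 0.150 CPM). In every other comparison of 2 groups given here the libraries of these 3 genes overlapped, and counts this near 0 leave their changes unresolved.

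MT2A was the most abundant metallothionein in every group. Per kb of its GENCODE transcript (786 bases) its level was 217 ± 4.96 CPM per kb in control droplets (SD, n = 3), against 37.3 ± 3.24 for MT1X and 12.6 ± 1.86 for MT1E. MT2A made up 74.23% to 80.94% of the metallothionein level per kb over the 6 groups. Counted from the RefSeq start, 385 bases further on, its share was 84.95% to 89.27%. SLC30A1 stood at 20.2 ± 1.22 CPM per kb in control droplets and MTF1 at 4.48 ± 0.0896 CPM per kb.

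In control spheroids MT2A stood at higher levels in collagen than in droplets, which is part of the pattern for which the set was chosen. Its levels were 166.4, 173.3 and 172.9 CPM in the 3 control droplet libraries, 302.7, 346.7 and 330.9 CPM at 24 h and 320.6, 390.1 and 386.4 CPM at 48 h. All 6 collagen libraries were above all droplet libraries, and the 2 times overlapped. The log2 fold change was 0.94 (SE 0.0782) at 24 h and 1.10 (SE 0.0785) at 48 h. In targeted spheroids the levels were 214.5, 222.8 and 200.2 CPM in droplets, 238.4, 222.0 and 224.1 CPM at 24 h and 286.8, 231.3 and 245.8 CPM at 48 h. Here the droplet and 24 h libraries overlapped, and the 48 h libraries lay above those in droplets. The log2 fold changes were 0.10 (SE 0.0777) at 24 h and 0.26 at 48 h. The order of the group means ran from control droplets (170.9 ± 3.90 CPM, SD, n = 3) through targeted droplets (212.5 ± 11.5), targeted at 24 h (228.1 ± 8.93), targeted at 48 h (254.6 ± 28.8) and control at 24 h (326.8 ± 22.3) to control at 48 h (365.7 ± 39.1). The 3 targeted groups overlapped with their neighbours in that order, as did the control groups in collagen. The control droplet libraries lay below all others, and all 6 control libraries in collagen lay above all targeted ones.

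**Figure D1:**
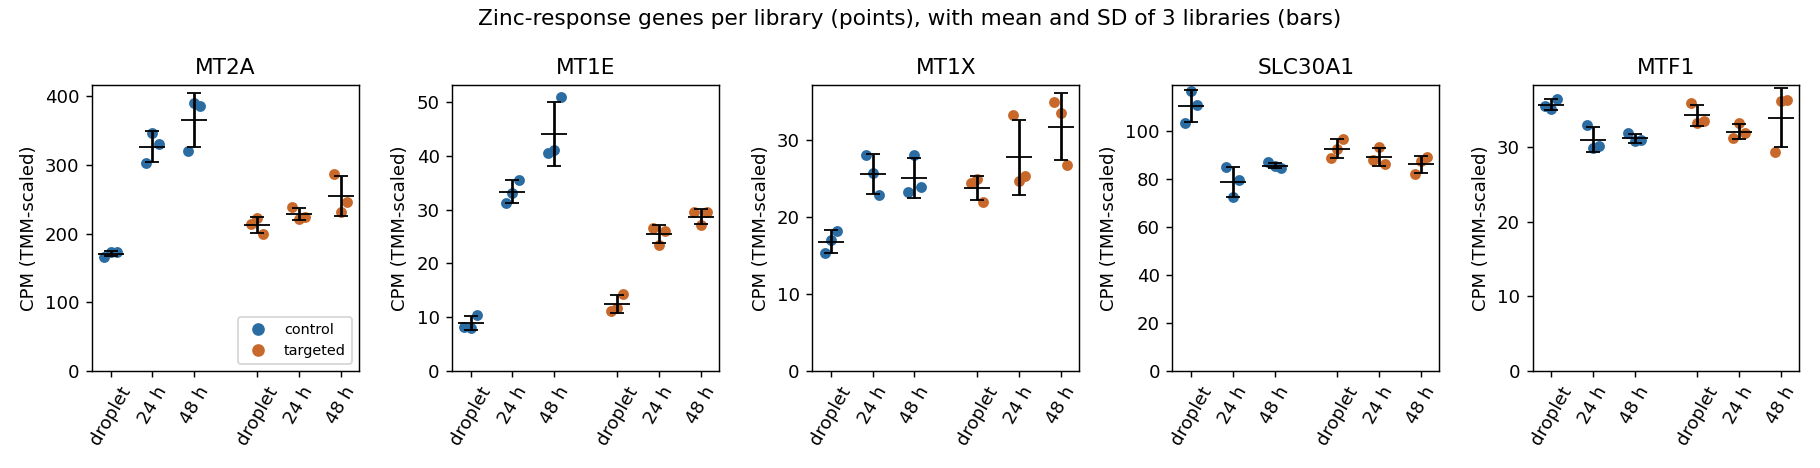
Level of the 5 tested genes in each library (points), in CPM scaled by TMM on axes from 0, with the mean and SD of 3 libraries (bars), in control (blue) and targeted (orange) spheroids in droplets and after 24 h and 48 h in collagen. MT2A lies at 302.7 to 390.1 CPM in the control libraries in collagen and at 222.0 to 286.8 CPM in the targeted ones.

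MT1E rose in collagen in both genotypes, with the largest log2 change over droplets of the 5 tested genes. It encodes a type 1 metallothionein. Control droplet libraries held 8.18, 8.06 and 10.4 CPM, those at 24 h 31.3, 33.2 and 35.6 CPM, and those at 48 h 40.5, 41.1 and 51.1 CPM. The 3 groups did not overlap. The log2 fold change over droplets was 1.91 (SE 0.112, adjusted p = 1.14e-11 by edgeR) at 24 h and 2.31 (SE 0.111, adjusted p = 6.49e-13) at 48 h. Targeted droplet libraries held 11.1, 11.7 and 14.3 CPM, those at 24 h 26.7, 23.5 and 26.1 CPM, and those at 48 h 29.5, 27.2 and 29.5 CPM. These groups did not overlap either, and the log2 fold change over droplets was 1.03 (SE 0.109, adjusted p = 1.04e-07 by edgeR) at 24 h and 1.21 (SE 0.108, adjusted p = 1.18e-08) at 48 h. Between 24 h and 48 h MT1E rose in control spheroids, by 0.40 on the log2 scale (SE 0.0979, edgeR's adjusted p = 0.00847). That call rested on replicate 3 of the control at 48 h, and without it the change was 0.28 with an adjusted p of 0.0682. In targeted spheroids the change was 0.18 (edgeR's adjusted p = 0.394).

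MT1X, another type 1 gene, rose in control spheroids and was higher in targeted droplets from the start. Its levels were 15.24, 16.95 and 18.14 CPM in control droplets, 28.1, 25.7 and 22.9 CPM at 24 h and 23.2, 28.0 and 23.8 CPM at 48 h. The collagen libraries lay above the droplet libraries at both times and overlapped each other. The log2 fold change was 0.60 (SE 0.123, edgeR's adjusted p = 0.00038) at 24 h and 0.57 (SE 0.124, adjusted p = 0.000654) at 48 h. In targeted spheroids the levels were 24.4, 24.9 and 22.0 CPM in droplets, 33.3, 24.6 and 25.3 CPM at 24 h and 34.9, 33.5 and 26.8 CPM at 48 h. Droplet and 24 h libraries overlapped there, with a log2 fold change of 0.22 (edgeR's adjusted p = 0.135). With no filter on low counts the adjusted p at 24 h was 0.0285. At 48 h MT1X was higher than in droplets by 0.42 (SE 0.119, edgeR's adjusted p = 0.00655).

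SLC30A1 fell in control spheroids in collagen, the opposite direction to the metallothionein genes. Control droplet libraries held 103.4, 116.7 and 110.8 CPM, those at 24 h 84.8, 72.4 and 79.4 CPM, and those at 48 h 86.9, 85.2 and 84.7 CPM. All control collagen libraries lay below all control droplet libraries. The log2 fold change was -0.48 (SE 0.0589, edgeR's adjusted p = 3.34e-07) at 24 h and -0.37 (SE 0.0589, adjusted p = 1.56e-05) at 48 h. Targeted libraries held 88.7, 92.3 and 96.6 CPM in droplets, 87.8, 93.3 and 86.4 CPM at 24 h and 82.2, 87.3 and 89.1 CPM at 48 h, and these groups overlapped. The log2 fold changes of -0.05 at 24 h (edgeR's adjusted p = 0.473) and -0.10 at 48 h (adjusted p = 0.152) did not pass the test.

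MTF1 mRNA varied least of the 5 tested genes. Its levels lay at 35.1 to 36.5 CPM in control droplets, 29.9 to 32.9 CPM in control at 24 h and 30.8 to 31.9 CPM at 48 h. It fell in control spheroids by 0.20 on the log2 scale at 24 h (SE 0.0701, edgeR's adjusted p = 0.0163) and by 0.19 at 48 h (SE 0.0705, adjusted p = 0.0228). These small changes rested on single libraries. The 24 h call was lost without replicate 3 of the control droplets (adjusted p = 0.0682) or without replicate 2 (0.0671) or replicate 3 (0.0635) of the control at 24 h. The 48 h call was lost without replicate 3 of the control droplets (0.0785), without replicate 2 (0.0606) or replicate 3 (0.0645) of the control at 48 h, and with no filter on low counts (0.0504). In targeted spheroids MTF1 lay between 33.3 and 35.9 CPM in droplets, between 31.2 and 33.2 CPM at 24 h and between 29.4 and 36.3 CPM at 48 h, with log2 fold changes of -0.09 (edgeR's adjusted p = 0.282) and -0.01 (adjusted p = 0.881). MTF1 is regulated by zinc binding to its protein, which a transcript level does not measure.

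**Figure D2:**
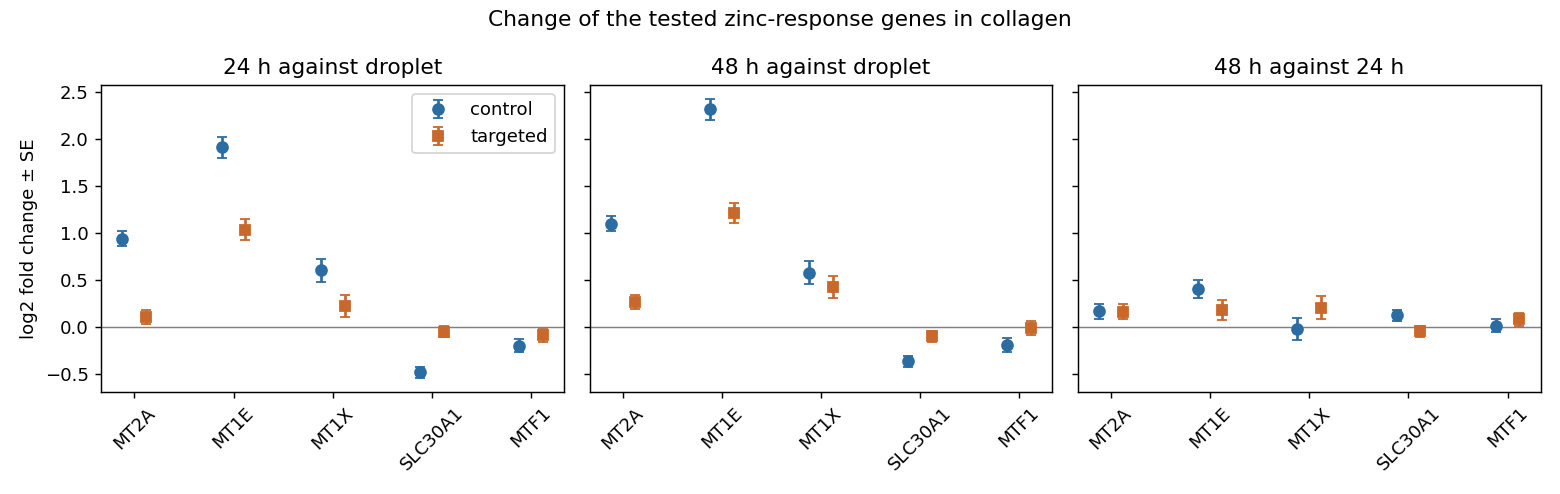
Log2 fold change with its SE (bars, edgeR) of the 5 tested genes between conditions, in control (blue circles) and targeted (orange squares) spheroids; the grey line marks no change. MT2A stands at 0.94 in control and 0.10 in targeted spheroids at 24 h, and SLC30A1 at -0.48 and -0.05.

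Of the 7 members other than MT2A, 4 were tested. In control spheroids 4 of 4 were called at 24 h, when 56.5% of all tested genes were called (27.8% higher, 28.7% lower). They were also 4 of 4 at 48 h, when 55.2% of all were called (27.7% higher, 27.5% lower). MT1E and MT1X were the higher genes and MTF1 and SLC30A1 the lower ones at both times. In targeted spheroids 1 of 4 was called at 24 h (MT1E, against 51.1% of all tested genes, 25.5% higher and 25.7% lower) and 2 of 4 at 48 h (MT1E and MT1X, against 49.4%, 25.8% higher and 23.6% lower). Between 24 h and 48 h, 1 of 4 was called in control spheroids (MT1E, against 13.2% of all, 6.32% higher and 6.88% lower). In targeted spheroids edgeR called 0 of 4 (against 3.81% of all, 2.07% higher and 1.73% lower), with 0 at an unadjusted p under 0.05 and 0 by DESeq2. The background in collagen is high, and 4 genes are too few to set their share apart from it.

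Immediate-early genes, a list of 16 that respond to handling and enzymatic dissociation as well as to growth signals, moved with the collagen comparisons in both genotypes. Their summed level was 1701 to 1872 CPM in control droplets, 4993 to 6279 CPM at 24 h and 2966 to 3186 CPM at 48 h. In targeted spheroids it was 1668 to 1918, 5194 to 5473 and 3168 to 3498 CPM. The ranges of the 2 genotypes overlapped in droplets, at 24 h and at 48 h, although single genes differed. Targeted against control, 5 of the 16 were higher and 0 lower in droplets (against 7.7% and 9.7% of all tested genes). At 24 h 4 were higher and 1 lower (against 13.7% and 15.7%), and at 48 h 6 and 0 (against 14.4% and 15.1%). With single libraries left out, the count of higher genes in droplets fell to 3, and that of lower genes at 24 h rose to 3. The part of digestion or of this list in the changes of the metallothionein genes was not tested.

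Compared with control spheroids in the same condition, targeted spheroids had more of the 3 metallothionein transcripts in droplets and less MT2A and MT1E in collagen. In droplets MT2A was 0.31 higher on the log2 scale (SE 0.0780), and all 3 targeted libraries lay above all 3 control ones. MT1E was higher by 0.48 (SE 0.119, edgeR's adjusted p = 0.00691), also with no overlap. That call was lost without replicate 3 of the targeted droplets, where the change was 0.37 and the adjusted p 0.0546. MT1X was higher by 0.50 (SE 0.124, edgeR's adjusted p = 0.00825). SLC30A1 was lower by 0.25 (log2 fold change -0.25, SE 0.0585, adjusted p = 0.00377), a call lost without replicate 2 of the control droplets (-0.20, adjusted p = 0.0544). MTF1 did not pass the test (log2 fold change -0.06, adjusted p = 0.621). Of the 4 tested members other than MT2A, 3 were called in droplets, 2 higher and 1 lower, against 17.4% of all tested genes (7.7% higher, 9.7% lower).

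At 24 h in collagen MT2A was lower in targeted than in control spheroids, with a log2 fold change of -0.52, and the libraries did not overlap. MT1E was lower as well (-0.40, SE 0.101, edgeR's adjusted p = 0.0055, with no overlap). MT1X stood at 0.12 (adjusted p = 0.50) and MTF1 at 0.05 (adjusted p = 0.638), and neither passed. SLC30A1 was higher by 0.18 (SE 0.0593, edgeR's adjusted p = 0.0273), with libraries that did not overlap. The SLC30A1 call was lost without replicate 2 or 3 of the control at 24 h (adjusted p = 0.169 and 0.0635) and without replicate 1 or 2 of the targeted spheroids at 24 h (0.0522 and 0.144). Of the 4 members, 1 was called higher and 1 lower, against 29.4% of all tested genes (13.7% higher, 15.7% lower).

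At 48 h MT2A was again lower in targeted spheroids (log2 fold change -0.52, no overlap), and MT1E was lower by a larger value (-0.62, SE 0.10, edgeR's adjusted p = 0.000109, no overlap). MT1X was higher by 0.35 (SE 0.12, edgeR's adjusted p = 0.036), although its libraries overlapped, from 23.2 to 28.0 CPM in control and from 26.8 to 34.9 CPM in targeted spheroids. That call was lost without replicate 1 (adjusted p = 0.121) or replicate 3 (0.127) of the control at 48 h, and without replicate 1 (0.141) or replicate 2 (0.127) of the targeted spheroids at 48 h. SLC30A1 stood at 0.01 (adjusted p = 0.93) and MTF1 at 0.12 (adjusted p = 0.223). Replicate 1 of the targeted spheroids at 48 h held the lowest MTF1 level, 29.4 CPM, and without it MTF1 was called higher by 0.22 (edgeR's adjusted p = 0.0129). Of the 4 members, 1 was called higher and 1 lower with all libraries, against 29.5% of all tested genes (14.4% higher, 15.1% lower).

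**Figure D3:**
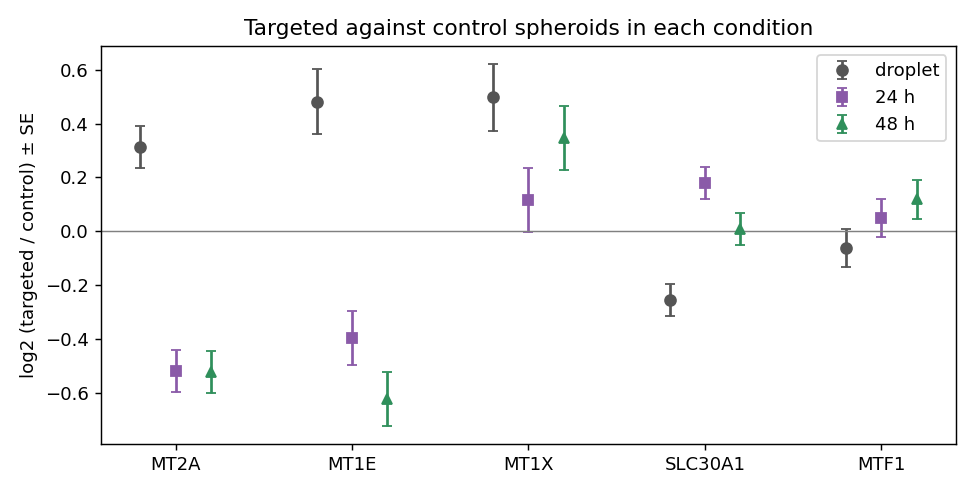
Log2 ratio of targeted to control spheroids with its SE (bars, edgeR) for the 5 tested genes in droplets (grey circles), at 24 h (purple squares) and at 48 h (green triangles) in collagen. MT2A and MT1E lie above 0 in droplets (0.31 and 0.48) and below 0 at 24 h (-0.52 and -0.40) and 48 h (-0.52 and -0.62), while MT1X lies above 0 in all 3 (0.50, 0.12 and 0.35).

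The difference between genotypes in the collagen response, as the log2 change in targeted minus that in control spheroids, was -0.83 (SE 0.11) for MT2A at 24 h and -0.84 (SE 0.11) at 48 h. For MT1E it was -0.88 at 24 h and -1.10 at 48 h (SE 0.156 at both times). For MT1X it was -0.38 and -0.15 (SE 0.172 at both times) and for MTF1 0.11 and 0.18 (SE 0.0992 and 0.0996). For SLC30A1 it was 0.43 and 0.26 (SE 0.0833 and 0.0835). These values describe the contrast that chose the set, in which 7.41% of all tested genes were called at 24 h (3.32% higher, 4.09% lower) and 6.79% at 48 h (4% higher, 2.78% lower). They share the droplet libraries, so they are not independent of each other. For MT2A and MT1E the targeted droplet level, which was above the control level, entered the difference together with the lower level in collagen. The change from 24 h to 48 h differed little between genotypes for MT2A (0.00 for targeted minus control, SE 0.11) and by -0.22 for MT1E (SE 0.142).

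The reads of the 20 genes with metallothionein type 1 or 2 symbols were also added into a single feature. MT2A supplied 83.62% of the 140755 reads summed, so the sum follows MT2A and is no separate evidence. In collagen against droplets the sum changed by 0.97 at 24 h and 1.15 at 48 h in control spheroids, and by 0.18 and 0.34 in targeted ones. Targeted against control it stood at 0.34 in droplets, -0.46 at 24 h and -0.47 at 48 h. Of the metallothionein genes that are not members, 1 of 15 was tested, MT1A, which is below the level asked of named genes and is named because it is the only one. MT1A held 10 to 13 reads per library in control droplets and 23 to 26 in control spheroids at 48 h, a rise of 1.10 on the log2 scale (SE 0.364, edgeR's adjusted p = 0.0136). At 48 h it was lower in targeted spheroids (log2 fold change -1.21, SE 0.374, edgeR's adjusted p = 0.0182), with 3 to 17 reads per library, a call lost without replicate 2 of the targeted spheroids at 48 h.

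The genes whose levels were most like that of MT2A were found by the Pearson correlation of log2 CPM over the 18 libraries, among 11170 tested genes with a mean of at least 5 CPM and a symbol. Among the 8 highest were COTL1 (r = 0.97), which binds actin filaments, RPL35 (0.96), RPL10A (0.96) and RPS19 (0.95), which are parts of the ribosome, PFDN2 (0.95), a prefoldin subunit, MRPL12 (0.95), a mitochondrial ribosomal protein, and SLIRP (0.95), a mitochondrial RNA-binding protein. The libraries fall into 6 groups, which these correlations share, and no p is given. MT1E had r = 0.90 with MT2A and ranked 154 of 17029 genes. MT1X had r = 0.51, MTF1 r = -0.75 and SLC30A1 r = -0.82. The change in MT2A was larger than that of the gene most like it: COTL1 averaged 170.4 CPM in control droplets, 234.3 CPM after 24 h and 256.4 CPM after 48 h, and in targeted spheroids 181.7, 199.3 and 211.4 CPM.

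Transcript length moved with these comparisons. Among the 1642 tested genes with the shortest GENCODE transcripts (143 to 1019 bases), which include MT2A, MT1E and MT1X, the median log2 change was 0.08 at 24 h and 0.17 at 48 h in control spheroids, and -0.01 and 0.07 in targeted spheroids. Relative to genes of like length, MT2A changed by 0.85 at 24 h and 0.93 at 48 h in control spheroids. The difference between genotypes in the MT2A response relative to genes of like length was -0.75 at both times. On the same measure MT1X changed by 0.41 at 48 h in control spheroids, and MTF1 by -0.13 at 24 h and -0.12 at 48 h. Relative to genes of like GC content, MT2A changed by 0.03 in targeted spheroids at 24 h, and MTF1 by -0.25 in control spheroids at 48 h. The difference between genotypes at 48 h was then -0.98 for MT2A and 0.34 for SLC30A1. The other member values moved by less than the spread between replicates in both settings. Lengths were known for 96.32% of tested genes.

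Most SLC30 proteins export zinc from the cytosol, to the outside or into organelles, and SLC39 proteins bring zinc into the cytosol. Of 7 tested SLC30 genes other than SLC30A1, 3 were called in control spheroids at 24 h, all lower, when 28.7% of all tested genes were lower. Their median log2 change was -0.09 against 0.00 over all tested genes. At 48 h 4 were called, again all lower (against 27.5% of all tested genes), with a median of -0.18 against 0.00. That count was 1 with the control droplet replicate 3 left out. In targeted spheroids 1 was higher and 3 lower at 24 h (against 25.5% higher and 25.7% lower of all), and 1 higher and 4 lower at 48 h (against 25.8% and 23.6%), with medians of -0.06 and -0.24. Without replicate 2 of the targeted droplets or replicate 1 at 48 h, 2 were lower at 48 h. The higher gene was SLC30A3, named here because it is the only one, with a mean of 0.371 ± 0.169 CPM in targeted droplets and 0.94 ± 0.179 CPM at 48 h (SD, n = 3). Its 24 h call was lost without replicate 1 or 2 of the targeted droplets or replicate 2 or 3 at 24 h, and its 48 h call without replicate 2 of the droplets or replicate 3 at 48 h. SLC30A9 fell in both genotypes at both times, with log2 fold changes of -0.40 and -0.30 in control and -0.34 and -0.33 in targeted spheroids (edgeR's adjusted p at most 3.29e-06). SLC30A10, better known as a manganese exporter, fell by 1.27 on the log2 scale in control spheroids at 24 h (SE 0.271, edgeR's adjusted p = 0.000364) from a droplet mean of 2.695 ± 0.635 CPM (SD, n = 3). It was also lower in control spheroids at 48 h (-0.71, edgeR's adjusted p = 0.0253) and in targeted spheroids at 24 h (-0.67, adjusted p = 0.0338). The first of these calls was lost without replicate 1 or 3 of the control droplets or replicate 2 or 3 of the control at 48 h, and the other without replicate 1 or 3 of the targeted droplets or replicate 2 or 3 of the targeted spheroids at 24 h. In targeted spheroids at 48 h it stood at -0.34 (edgeR's adjusted p = 0.279).

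Among 11 tested SLC39 importers, 3 were higher and 4 lower in control spheroids at 24 h and likewise 3 and 4 at 48 h. In targeted spheroids 5 were higher and 4 lower at 24 h, and 3 and 4 at 48 h. Over all tested genes between 23.6% and 28.7% were called in each direction in these 4 comparisons. The medians lay between -0.05 and 0.07 on the log2 scale. SLC39A8, which carries zinc, manganese and cadmium into cells, was at 43.7 ± 2.79 CPM in control droplets and rose to 66.3 ± 7.43 CPM by 24 h (SD, n = 3, log2 fold change 0.60, SE 0.0701, edgeR's adjusted p = 1.88e-07). SLC39A10, a plasma membrane importer, fell from 103.5 ± 5.02 to 62.07 ± 2.698 CPM (-0.74, SE 0.0618, adjusted p = 1.34e-09). SLC39A11 fell from 14.2 ± 0.572 to 8.38 ± 0.824 CPM (-0.76, SE 0.102, adjusted p = 1.26e-06). In targeted spheroids at 24 h the changes were smaller in value, 0.40 for SLC39A8 and -0.40 for SLC39A10, and both passed. With all libraries, the difference between genotypes in the 24 h response passed the test for SLC39A10 but not for SLC39A8. SLC39A14, an importer of zinc and iron, rose in both genotypes. In control spheroids it rose by 0.17 at 24 h and 0.25 at 48 h (edgeR's adjusted p = 0.033 and 0.00266), and in targeted ones by 0.35 at both times (adjusted p = 0.000161 and 0.000153). Its 24 h call in control spheroids was lost on library size alone (adjusted p = 0.0755) and without replicate 3 of the control droplets or replicate 1 or 3 of the control at 24 h (up to 0.161). The difference between genotypes in this response did not pass the test (0.18 at 24 h and 0.10 at 48 h, edgeR's adjusted p = 0.262 and 0.557).

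**Figure D4:**
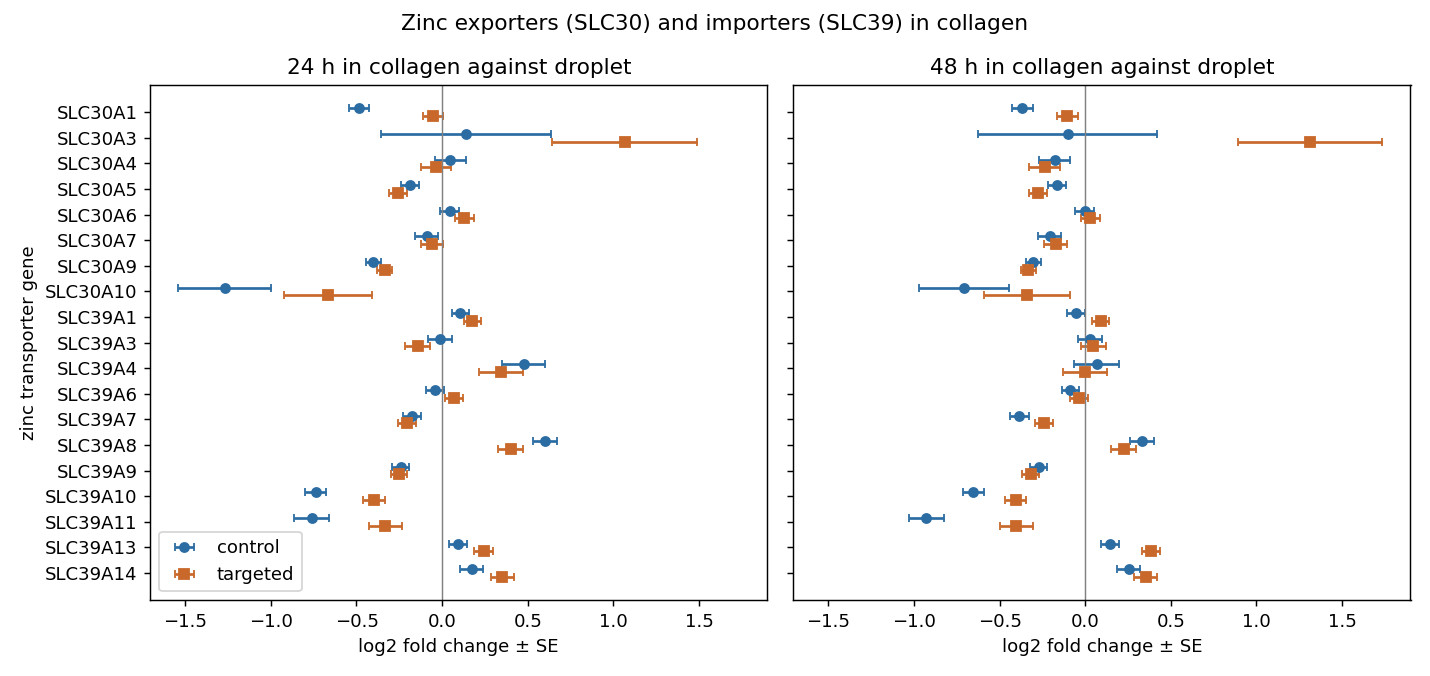
Log2 fold change with its SE (bars, edgeR) of 19 zinc transporter genes in collagen against droplets, at 24 h (left) and 48 h (right), in control (blue circles) and targeted (orange squares) spheroids. SLC30A1, SLC39A10 and SLC39A11 lie further below 0 in control than in targeted spheroids, and the wide bars of SLC30A3 and SLC30A10 belong to genes with few reads.

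Targeted and control spheroids differed in several importers in each condition. Of 11 importers, 6 were lower in targeted droplets (against 9.7% of all tested genes), 4 at 24 h (against 15.7%) and 3 at 48 h (against 15.1%). The medians were -0.16, -0.08 and -0.02 on the log2 scale. Higher in targeted spheroids, against 7.7%, 13.7% and 14.4% of all tested genes, were 1 in droplets, a call lost on leaving out any of 4 libraries (replicates 1 and 2 of the control and 2 and 3 of the targeted droplets), 2 at 24 h and 1 at 48 h. At 24 h the count of higher importers was 1 without replicate 2 or 3 of the control or any targeted library, and at 48 h it was 2 without targeted replicate 1. SLC39A8 was lower in targeted spheroids throughout, with log2 fold changes of -0.39, -0.59 and -0.50 (edgeR's adjusted p = 0.000501, 2.996e-06 and 2.78e-05). SLC39A7, which releases zinc from the endoplasmic reticulum, was lower by -0.32, -0.34 and -0.17 (adjusted p = 0.000189, 6.13e-05 and 0.0178). The 48 h call of SLC39A7 was lost on library size alone (adjusted p = 0.09) and without replicate 2 of the control or replicates 2 or 3 of the targeted spheroids (up to 0.0795). SLC39A11 was higher in collagen, by 0.74 at 24 h and 0.84 at 48 h (adjusted p = 1.46e-05 and 5.24e-06).

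Genes of copper handling were both higher and lower in collagen. In control spheroids 4 of 14 were higher and 7 lower at 24 h (4 lower without replicate 3 at 24 h), against 27.8% and 28.7% of all tested genes. At 48 h 4 were higher and 3 lower, against 27.7% and 27.5%. In targeted spheroids 4 were higher and 5 lower at 24 h (against 25.5% and 25.7%), and 4 and 4 at 48 h (against 25.8% and 23.6%). The latter count of higher genes was 2 without replicate 1 of the targeted droplets or replicate 3 at 48 h, and that of lower genes was 2 without replicate 2 at 48 h. ATOX1, a copper chaperone, rose by 0.79 in control and 0.48 in targeted spheroids at 24 h (edgeR's adjusted p = 3.13e-07 and 0.000197). ATP7A, a copper-exporting ATPase, fell in control spheroids by 0.61 at 24 h and 0.56 at 48 h on the log2 scale (adjusted p = 4.94e-06 and 1.64e-05). Targeted spheroids had less ATP7A in collagen too, with means of 54.5 and 51.7 CPM at these times. The targeted droplet libraries averaged 68.7 CPM and lay above all targeted collagen libraries for this gene. STEAP3, a metalloreductase for iron and copper, was lower in targeted than in control droplets, at 81.8 ± 5.35 against 118.9 ± 3.16 CPM (SD, n = 3 each, log2 fold change -0.54, SE 0.0528, adjusted p = 1.86e-07). In collagen it rose in targeted spheroids, by 0.43 at 24 h and 0.38 at 48 h (edgeR's adjusted p = 5.64e-07 and 4.58e-06).

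Other stimuli known to act on metallothionein genes were read from lists of their targets. Of 21 tested targets of NRF2, the oxidative stress factor, 5 were higher and 14 lower in control spheroids at 24 h (median log2 change -0.29, against 0.00 over all genes). At 48 h 5 were higher and 13 lower there (median -0.36), and the count of higher genes was 3 on library size alone or without replicate 1 of the control droplets or replicate 3 at 48 h. In targeted spheroids 3 were higher and 9 lower at 24 h (median -0.13), and 6 and 5 at 48 h (median 0.03). Over all tested genes 56.5% and 55.2% were called in control and 51.1% and 49.4% in targeted spheroids at these times, in nearly equal shares higher and lower. Targeted against control, 1 was higher and 4 lower in droplets, 2 and 4 at 24 h, and 5 and 2 at 48 h, when 17.4%, 29.4% and 29.5% of all tested genes were called. NQO1, a quinone reductase, fell in both genotypes at 24 h (log2 fold change -0.97 in control and -0.80 in targeted spheroids, edgeR's adjusted p = 1.21e-09 and 3.45e-08), as did FTH1, the ferritin heavy chain (-0.85 and -0.91, adjusted p = 1.05e-07 and 8.41e-08). Of 13 tested glucocorticoid targets, 6 were higher and 4 lower in control spheroids at 24 h, and 5 higher and 2 lower in targeted ones (1 lower on library size alone or without replicate 1 or 2 of the targeted droplets or replicate 2 or 3 at 24 h). At 48 h 5 were higher and 7 lower in control spheroids (median -0.36), and 5 higher and 2 lower in targeted ones (median -0.09), against the shares of all tested genes just given. The largest rises at 24 h, in control and targeted spheroids, were DUSP1 (4.40 and 3.96) and SGK1 (2.90 and 2.51), and DUSP1 is also an immediate-early gene. TSC22D3, which encodes the glucocorticoid-induced leucine zipper, rose by 0.99 in control and 1.49 in targeted spheroids (adjusted p = 2.46e-07 and 1.93e-09 by edgeR). Targeted against control, 2 of the 13 were higher and 1 lower in droplets, 5 higher and 3 lower at 24 h (median 0.18), and 8 higher and 2 lower at 48 h (median 0.56). Of all tested genes 13.7% were higher and 15.7% lower at 24 h, and 14.4% and 15.1% at 48 h. The lower call in droplets was lost on library size alone and without any of 5 of the 6 libraries. KLF9, a transcription factor, was higher by 0.70 at 24 h (SE 0.085, edgeR's adjusted p = 5.15e-06) and by 0.56 at 48 h (adjusted p = 6.79e-05). ERRFI1, an inhibitor of EGF receptor signalling, was higher by 0.63 at both times (edgeR's adjusted p = 4.57e-05 and 5.39e-05). FKBP5, a cochaperone of the glucocorticoid receptor, was lower by 0.65 at 24 h (log2 fold change -0.65, SE 0.0957, edgeR's adjusted p = 5.56e-05) and by 0.62 at 48 h (-0.62, adjusted p = 0.000116). KLF9 and ERRFI1 were also the higher genes in targeted droplets.

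Heat shock genes are also known to rise with cadmium and other thiol-reactive metals. Of 12 tested, 7 were higher and 3 lower in control spheroids at 24 h (5 lower without replicate 3 of the control droplets), against 27.8% and 28.7% of all tested genes, and 9 and 2 in targeted ones, against 25.5% and 25.7%. At 48 h 6 were higher and 5 lower in control spheroids (against 27.7% and 27.5% of all tested genes), and 6 and 2 in targeted ones (against 25.8% and 23.6%). HSPD1, a mitochondrial chaperonin, rose by 0.84 in control and 0.57 in targeted spheroids (edgeR's adjusted p = 6.92e-09 and 2.19e-06). In collagen 7 were higher in targeted than in control spheroids at 24 h, against 13.7% of all tested genes, and 6 at 48 h, against 14.4%, and without replicate 3 of the control at 48 h the latter count was 3. HSPB1, a small heat shock protein, was higher by 0.36 at 24 h and 0.31 at 48 h (adjusted p = 0.000281 and 0.00126). HSPA1A and HSPA1B, near-identical copies whose reads could be shared in counting, were higher at 24 h by 0.51 and 0.42 (adjusted p = 0.000306 and 2.56e-05), and their single values are uncertain.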

How the data were processed

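The deposited table holds RSEM expected counts per gene for 18 libraries, made by the submitters, and all of its values are whole numbers. Per the submitters' processing notes, cutadapt 2.3, FastQC 0.11.8, STAR 2.7.8a, RSEM 1.3.3, MultiQC 1.7 and DESeq2 1.42.0 were used with GRCh38. No annotation release or strand setting is stated in the sources used. Without known strand, reads of a gene and of an antisense partner cannot be told apart. Per the labels, polyA RNA was read as 151 bp pairs.

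From these counts, 4 reporter rows with 0 reads were left out of 62714, and groups were taken from the genotype and treatment labels. In R 4.3.3, edgeR 4.0.16 (with limma 3.58.1) fitted 1 robust quasi-likelihood model with a coefficient for each of the 6 groups, after filterByExpr (minimum count 10) and TMM. P-values were adjusted by Benjamini-Hochberg within a contrast, at a threshold of 0.05, and the SE is the absolute log2 fold change divided by the square root of F. Log2 CPM for correlations used a prior count of 2. The code was tested on simulated data. Totals of 19819401 to 33352163 counts set the depth, and intervals and floors cover counting error only.

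The members and the gene lists were chosen with earlier results of these data known. All 8 members are named. List genes are named up to 4 per list and comparison by absolute log2 fold change among those called whose higher group averaged 1 CPM or more, and not every such gene is printed. A gene so named may also be given in other comparisons. The 8 genes most like MT2A are those with the highest Pearson correlation, of which 1 is not reported here. The alternatives were library size alone, DESeq2 1.42.0, no filter, only the groups compared, a replicate block, each library left out, summed metallothionein genes, and changes relative to genes of like transcript length or GC content, the last pair chosen after seeing the data. For the lists, library size alone and each library left out were run, also chosen after seeing the data.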

Additional observations from a re-analysis of the deposited data

Results flagged for a closer look

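Each gene below is flagged because its collagen response differed between genotypes by the interaction test of edgeR (targeted minus control, log2 scale, Benjamini-Hochberg adjusted over all 17030 genes). Among zinc importers these were SLC39A10 at 24 h (0.3395, SE 0.0871, adjusted p = 0.0222) and SLC39A11 at 48 h (0.526, SE 0.143, adjusted p = 0.0309). SLC39A10 averaged 103.5 CPM in droplets and 62.1 CPM at 24 h in control spheroids, and 92.8 and 70.4 CPM in targeted ones. The call of SLC39A10 was lost on leaving out 8 of the 12 libraries in turn (adjusted p up to 0.0697), and that of SLC39A11 on leaving out 6 (up to 0.0979). STEAP3 differed at 24 h (0.5012, SE 0.0743, adjusted p = 0.00102) and 48 h (0.4267, SE 0.0745, adjusted p = 0.00496). Its 3 targeted droplet libraries, at 77.6 to 87.8 CPM, lay below all others.

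Among NRF2 targets ME1 differed at 24 h (0.6617, adjusted p = 0.036) and 48 h (0.8193, adjusted p = 0.017), and at 48 h so did HMOX1 (0.7943, adjusted p = 0.0304) and FTL (0.3945, adjusted p = 0.00513). Among glucocorticoid targets FKBP5 stood at -0.5143 at 24 h (adjusted p = 0.0271) and -0.4847 at 48 h (0.0394), BCL6 at 0.5639 (0.0302) and 0.5921 (0.0284), CDKN1C at 0.7254 at 24 h (0.0302) and PER1 at 0.6721 at 48 h (0.0161). HSPA1A stood at 0.6884 at 24 h (0.00509) and 0.4917 at 48 h (0.0279), and its near-identical copy HSPA1B at 0.4387 (0.00606) and 0.3777 (0.0149). On leaving out each of the 12 libraries in turn, the call was lost without 9 of them for ME1 and BCL6 and without 7 for FKBP5 and CDKN1C at 24 h. At 48 h it was lost without 8 for FKBP5, 7 for BCL6, HMOX1 and HSPA1A, 3 for ME1 and 2 for HSPA1B. The calls of STEAP3 and FTL, that of PER1, and those of HSPA1A and HSPA1B at 24 h held without each library. On library size alone FKBP5 was lost at 48 h (adjusted p = 0.0545).

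Of the fibroblast list, PDGFRB differed at 24 h (1.064, SE 0.142, adjusted p = 0.000438) and 48 h (1.043, SE 0.146, adjusted p = 0.000709), and both calls held without each library. It averaged 25.7, 13.2 and 10.8 CPM in control droplets, at 24 h and at 48 h, and 19.2, 20.5 and 16.7 CPM in targeted spheroids. LUM, a collagen-binding proteoglycan, differed at 48 h (0.9961, SE 0.273, adjusted p = 0.0324), a call lost without 7 of the 12 libraries, and its group means were at most 2.94 CPM.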

How the results depend on the processing

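No log2 change of a member or named list gene changed sign in a way that touched a call under the alternatives run, and of 3764 such values 3380 kept their side of the threshold or, where no test was made, moved by less than the spread between replicates. The count of members other than MT2A called in targeted spheroids at 24 h was 2 with no filter on low counts, against 1. With each library left out in turn, the count ranged from 0 to 1 for 48 h against 24 h in control spheroids, from 1 to 2 for targeted against control at 24 h and from 1 to 2 at 48 h. Smaller moves also lowered the counts for control spheroids in collagen and for targeted against control droplets. There the calls of MTF1, and those of MT1E and SLC30A1, were each lost without some library, and that of MTF1 at 48 h also with no filter. DESeq2, library size alone and the fit of only the groups compared changed no member call. Replicate numbers were not treated as pairs: deviations of same-numbered libraries correlated at -0.0701 to 0.138 (median 0.00746), and 2 of 45 pairs were over 0.1. With the replicate block the counts of members called were 4, 4, 1 and 2 in collagen against droplets (control at 24 h and 48 h, then targeted), 1 and 0 for 48 h against 24 h, and 3, 2 and 2 for targeted against control, so the block moved none of them. On library size alone the share of higher genes among calls went from 46.5% to 61.9% for targeted against control at 24 h, from 48.9% to 64.3% at 48 h, from 54.5% to 44.2% for 48 h against 24 h in targeted spheroids, and from 44.8% to 59.0% and from 59.0% to 73.9% for the differences in response at 24 h and 48 h. The median shift was at most 0.058 on the log2 scale. Of 392 calls of named list genes, 89 were lost without some library and 15 on library size alone. Depth limits MT1F, MT1G, MT1M and MT1A, whose reads are few.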
